A study of Mus musculus with 24 samples.

Results

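The 43 genes described here encode nucleolar and ribosome-making proteins together with enzymes of polyamine and nucleotide synthesis and 1 mitochondrial transcription factor, a set known as targets of the transcription factor MYC. They were chosen by symbol, and a gene was measured when the accession of at least 1 array probe mapped to its symbol. Of the 43 genes, 39 were found on the arrays, with 62 probes, and all 39 were tested among 22387 genes in all. Gnl3, Utp20, Wdr43 and Ppat were not analysed here.

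The cells were R1, a mouse embryonic stem (ES) cell line, infected with lentivirus that carried a short hairpin RNA. There were 8 groups of 3 arrays: shNTC (a hairpin with no target), shCdk8-1 and shCdk8-2 on day 8 after infection, and these plus shMed12-1 and shMed12-2 on day 13. Every group, the controls included, went through infection, and an uninfected group is not part of the comparisons. Each of the 24 arrays compared Cy5-labelled RNA of the cells with a Cy3-labelled universal mouse reference RNA, a mixture of several mouse cell lines, with no dye swap. The labels call the replicates biological without saying whether each had its own culture or infection. The p-values therefore reflect only how far these arrays vary, which may be technical variation. Cdk8 (a kinase) and Med12 (which activates it) belong to the detachable kinase module of Mediator, through which transcription factors act on RNA polymerase II.

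Ribosomes are made in the nucleolus. RNA polymerase I copies the ribosomal DNA into a long precursor, small nucleolar ribonucleoproteins (snoRNPs) modify and cut it, and helicases, nucleases and assembly factors build the small and large subunits from it. ES cells divide fast and are known for a high demand for ribosomes, nucleotides and polyamines.

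Log2 ratios of Cy5 over Cy3 are given as levels relative to the reference, and differences of such ratios between groups as log2 changes. A gene was called at a Benjamini-Hochberg adjusted p under 0.05 over all genes in limma's moderated test, fitted on all 24 arrays. Each hairpin lowered its own target: the log2 change of Cdk8 was -0.78, -0.31, -0.95 and -0.64 (shCdk8-1 and shCdk8-2 on day 8, then on day 13), and that of Med12 -1.06 with shMed12-1 and -0.88 with shMed12-2, all called. Between 48.9% and 76.1% of spots were well above background in Cy5 across the arrays. The ES cell label was checked on 9 measured pluripotency markers, whose mean log2 level on single arrays was 5.39 to 6.12 above the reference, while 15 fibroblast markers lay at -4.53 to -3.55. Most fibroblast markers, such as Col1a1, Col3a1, Thy1 and Dcn, were well above background on all 24 arrays, Lum on 23 and Postn on 14. A low ratio to the reference therefore does not mean that their RNA was absent. Arrays sat on 8 slides, and shCdk8-1 on either day and shMed12-1 shared no slide with their shNTC arrays. Hairpins to the same target also shared no slide with each other on the same day.

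The upstream sequences of the 3 genes that were lower with both Med12 hairpins are shown first, since the group is known for MYC, which binds the E-box letters CACGTG. They are the 250 bases before the start in RefSeq (GRCm38.p6), on the gene's own strand (plus for all 3), with any CACGTG in capitals. Exosc5 lies at chr7:25658903-25659152, Nop2 at chr6:125131633-125131882 and Rrp9 at chr9:106477059-106477308.
Exosc5: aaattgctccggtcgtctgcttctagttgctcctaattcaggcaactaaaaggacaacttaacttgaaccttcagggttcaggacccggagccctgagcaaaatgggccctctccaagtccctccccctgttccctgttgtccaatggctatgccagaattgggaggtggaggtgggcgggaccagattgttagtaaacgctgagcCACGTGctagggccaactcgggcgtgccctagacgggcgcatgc
Nop2: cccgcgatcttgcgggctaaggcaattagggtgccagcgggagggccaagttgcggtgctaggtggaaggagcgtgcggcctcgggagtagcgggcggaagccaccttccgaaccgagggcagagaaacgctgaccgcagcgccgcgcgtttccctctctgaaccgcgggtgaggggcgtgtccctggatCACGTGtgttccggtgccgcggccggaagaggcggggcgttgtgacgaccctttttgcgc
Rrp9: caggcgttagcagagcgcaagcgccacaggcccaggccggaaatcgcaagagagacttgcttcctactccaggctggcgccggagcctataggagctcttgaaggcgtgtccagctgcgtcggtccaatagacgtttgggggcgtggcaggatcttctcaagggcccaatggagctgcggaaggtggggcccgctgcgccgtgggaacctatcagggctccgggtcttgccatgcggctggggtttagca
Exosc5 held the letters 44 bases and Nop2 60 bases before the start, counted to the first base of the match, and Rrp9 held none in its window.

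CACGTG reads the same on both strands. Promoter windows (250 bases before to 50 after a start) were found for 37 of the 43 genes, and 7 of the 37 (18.9%) held CACGTG in at least 1 window, against 8.1% of the 27025 genes in the table. The genes' windows were also richer in G and C, with a median of 59.7% against 52.7% over all windows. The letters fell before the start in Exosc5, Nop2, Nme1 and Paics and after it in Pes1, Utp20 and Wdr43. The stretches of 30 bases around the matches of Nme1, which has 2 listed starts (minus strand, chr11:93968037-93968066 and chr11:93968273-93968302), and of Paics (plus strand, chr5:76951087-76951116) are shown for comparison.
Nme1, match 29 bases before the start: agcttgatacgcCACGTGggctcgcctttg
Nme1, match 18 bases before the other start: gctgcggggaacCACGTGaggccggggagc
Paics, match 203 bases before the start: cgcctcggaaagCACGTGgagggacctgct
A match of letters is a description of the sequence and not a binding site.

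In control cells nearly the whole group lay above the reference. In shNTC cells on day 8, 38 of the 39 genes were above it on all 3 arrays, with a median log2 level of 1.20 over genes, and 28 were more than 1 log2 unit above it. Over all genes tested the median was 0.06. By the group mean, 54.3% of all genes lay above the reference and 11.6% more than 1 log2 unit above it. By that measure the group count was also 38 of 39. The counts above the reference were 38 of 39 in each of the other 7 groups too, with medians from 1.03 in shMed12-1 to 1.18 in shNTC on day 13.

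**Figure D1:**
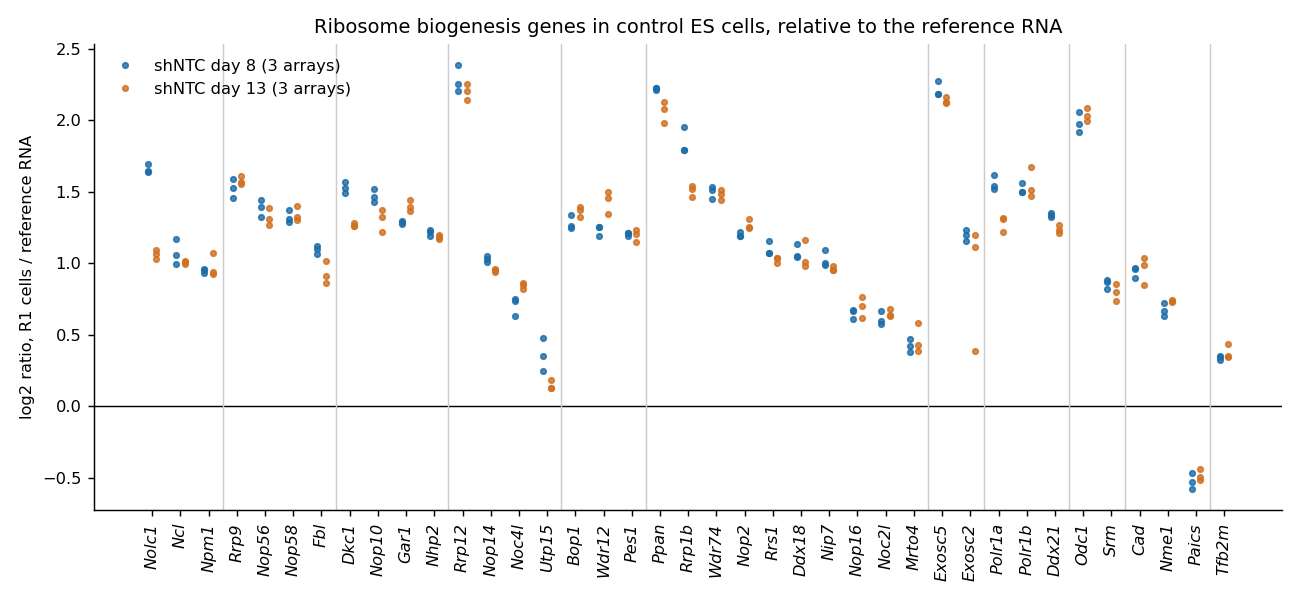
Log2 ratio of R1 cells to the reference RNA (vertical axis) for the 39 genes on the 3 shNTC arrays of day 8 (blue) and of day 13 (orange), with vertical lines between roles (nucleolar proteins, box C/D, box H/ACA, small subunit, PeBoW, large subunit, exosome, RNA polymerase I, polyamines, nucleotides, mitochondria). All but Paics lie above 0, Rrp12, Exosc5, Ppan and Odc1 lie highest, and Nolc1 sits lower on day 13 than on day 8.

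Of the nucleolar proteins, Ncl (nucleolin, which binds the rRNA precursor) was at 1.17, 1.06 and 1.00 and Npm1 (nucleophosmin, a shuttling chaperone of ribosome assembly) at 0.93, 0.95 and 0.96 on the shNTC arrays of day 8. Rrp12, a factor of small subunit maturation, was at 2.38, 2.25 and 2.20, and Exosc5, a subunit of the RNA exosome that trims rRNA ends, at 2.18, 2.18 and 2.27. Odc1, the first enzyme of polyamine synthesis, was at 1.98, 2.06 and 1.92. Paics, an enzyme of purine synthesis, was the single gene of the group below the reference, at -0.53, -0.46 and -0.58. Of the 39 genes, 16 had several probes, and those differed in the sign of the mean change of both hairpins for 8 genes in the Cdk8 comparison of day 8, for 9 in that of day 13 and for 4 in the Med12 comparison. Values are those of the brightest probe unless another is named, and calls of other probes are adjusted over all probes. Since each level is relative to the reference RNA of the same gene, the order of genes is not an order of abundance.

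Between the days in control cells Nolc1 showed the largest change of the group. On day 13 against day 8 in shNTC cells, 7 of the 39 genes were called, 1 higher and 6 lower, beside 24.1% of all genes (11.6% higher, 12.5% lower). The median log2 change was -0.03. Nolc1, a nucleolar chaperone of snoRNPs, fell: it was at 1.64, 1.69 and 1.63 on day 8 and at 1.03, 1.09 and 1.07 on day 13, a change of -0.59 (SE 0.08, limma adjusted p = 3.86e-06). The 2 sets of arrays did not overlap. Rrp1b, a nucleolar regulator of rRNA processing, fell by 0.34. Polr1a, the largest subunit of RNA polymerase I, fell by 0.28. Dkc1, the pseudouridine synthase of H/ACA snoRNPs, fell by 0.26, and Fbl (fibrillarin, the methyltransferase of C/D snoRNPs) and Ppan, a large subunit factor, fell by 0.17 and 0.16. Wdr12 rose by 0.20. The count dropped to 4 without shNTC day 8 replicate 2 and to 3 without shNTC day 8 replicate 3. Of the 7, 5 stayed called with slide as a block, and Fbl (-0.15) and Polr1a (-0.24) did not. Cell type markers also differed between the days in shNTC cells: 11 of 13 endoderm markers were lower on day 13 and 5 of 8 trophoblast markers higher. Mean endoderm levels on single arrays were -0.54 to -0.48 on day 8 and -1.34 to -1.27 on day 13. The part of these markers in the changes was not tested.

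Med12 knockdown was followed by lower levels of Exosc5, Rrp9 and Nop2 with both hairpins, and more genes were called with shMed12-1 than with shMed12-2. With shMed12-1, 20 of the 39 genes were called, 3 higher and 17 lower, beside 26.8% of all genes (13.3% higher, 13.5% lower). With shMed12-2, 4 genes were called, all lower, beside 24.1% of all genes (11.9% higher, 12.2% lower). Called with both hairpins in the same direction were 3 of 39, all lower, against 10.9% of all genes (5.24% lower): Exosc5, Rrp9 and Nop2. Dimmer probes of Nop14, a small subunit factor (-0.41 and -0.37), and of Nolc1 (-0.31 and -0.34) were also called lower with both hairpins. The brightest probes of these genes were not called with both. The median log2 change of the group was -0.10 with shMed12-1 and -0.05 with shMed12-2, against 0.00 over all genes with either. With slide as a block the count with shMed12-1 was 5, beside 12.4% of all genes, and that with shMed12-2 was also 5. The count with shMed12-2 rose to 11 with the Feature Extraction log ratio and to 10 with the mean of all probes of a gene, and that with both hairpins to 7 in each. A gene called with 1 hairpin and not with the other is not thereby shown to differ between them.

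**Figure D2:**
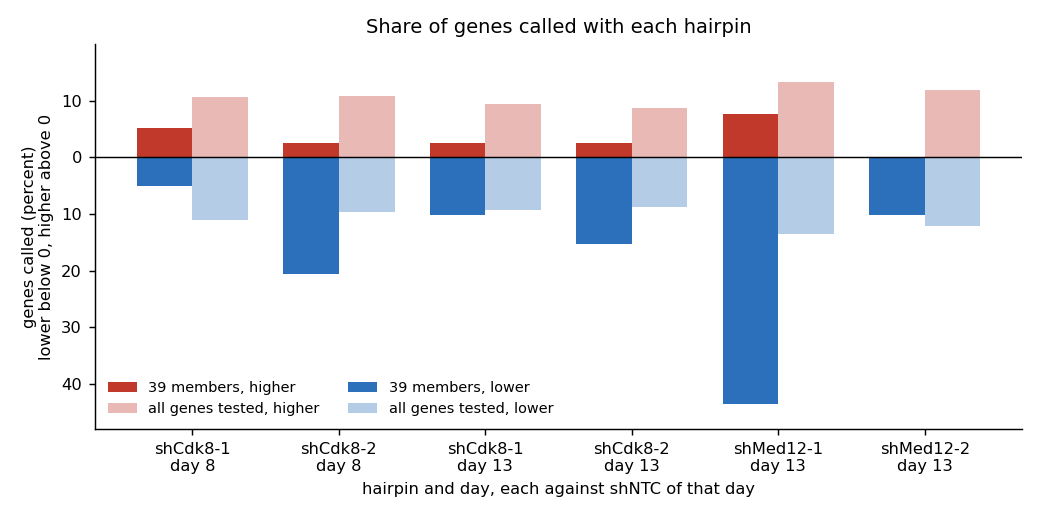
Percent of genes called (vertical axis, higher above 0 and lower below 0) with each hairpin against shNTC of the same day, for the 39 genes (dark bars) and all 22387 genes tested (pale bars). With shMed12-1, 17 of 39 genes were lower against 13.5% of all genes, and with shMed12-2 4 of 39 against 12.2%.

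Exosc5 had the largest fall of the group with each Med12 hairpin. It was at 2.12, 2.12 and 2.16 in shNTC cells of day 13, at 1.80, 1.77 and 1.75 with shMed12-1 and at 1.67, 1.69 and 1.67 with shMed12-2. All 6 knockdown arrays lay below all 3 controls. The log2 changes were -0.36 (SE 0.05, adjusted p = 5.09e-06) and -0.46 (SE 0.05, adjusted p = 1.73e-07). With Cdk8 knockdown on the same day Exosc5 was at 2.01, 2.08 and 1.97 and at 2.07, 1.93 and 2.02, and neither hairpin was called. The difference between Cdk8 and Med12 knockdown, as means of both hairpins, was 0.29 (SE 0.03, adjusted p = 9.41e-07). Both Cdk8 and Med12 knockdown were compared with the same shNTC arrays, which cancel in this difference. Exosc5 stayed called with both Med12 hairpins with slide as a block (-0.44 and -0.48) and was lost when log ratios were scaled between arrays (-0.19 with each). Exosc2, the other exosome gene, was at 1.20, 1.11 and 0.39 in shNTC cells of day 13. The value of 0.39, from shNTC day 13 replicate 3, enters its log2 changes of 0.06 and 0.12 with the Med12 hairpins and 0.19 and 0.18 with the Cdk8 hairpins, none of them called.

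Rrp9, a protein of the U3 snoRNP that guides the first cuts of the precursor, was at 1.61, 1.56 and 1.57 in shNTC cells, at 1.36, 1.27 and 1.37 with shMed12-1 and at 1.32, 1.35 and 1.42 with shMed12-2. The changes were -0.25 (adjusted p = 0.00159) and -0.21 (adjusted p = 0.00534), with no overlap of arrays. With slide as a block shMed12-1 gave -0.26 and was no longer called. Nop2, an rRNA methyltransferase of the large subunit, was at 1.31, 1.25 and 1.26 in shNTC cells, at 1.15, 1.09 and 1.18 with shMed12-1 (-0.13, adjusted p = 0.0483) and at 1.13, 1.10 and 1.03 with shMed12-2 (-0.19, adjusted p = 0.00633). The shMed12-1 value of Nop2 was -0.06 and not called with slide as a block, and its call was lost in 5 of 6 fits that left out 1 array: each of shNTC day 13 replicates 1, 2 and 3 and of shMed12-1 replicates 1 and 2.

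**Figure D3:**
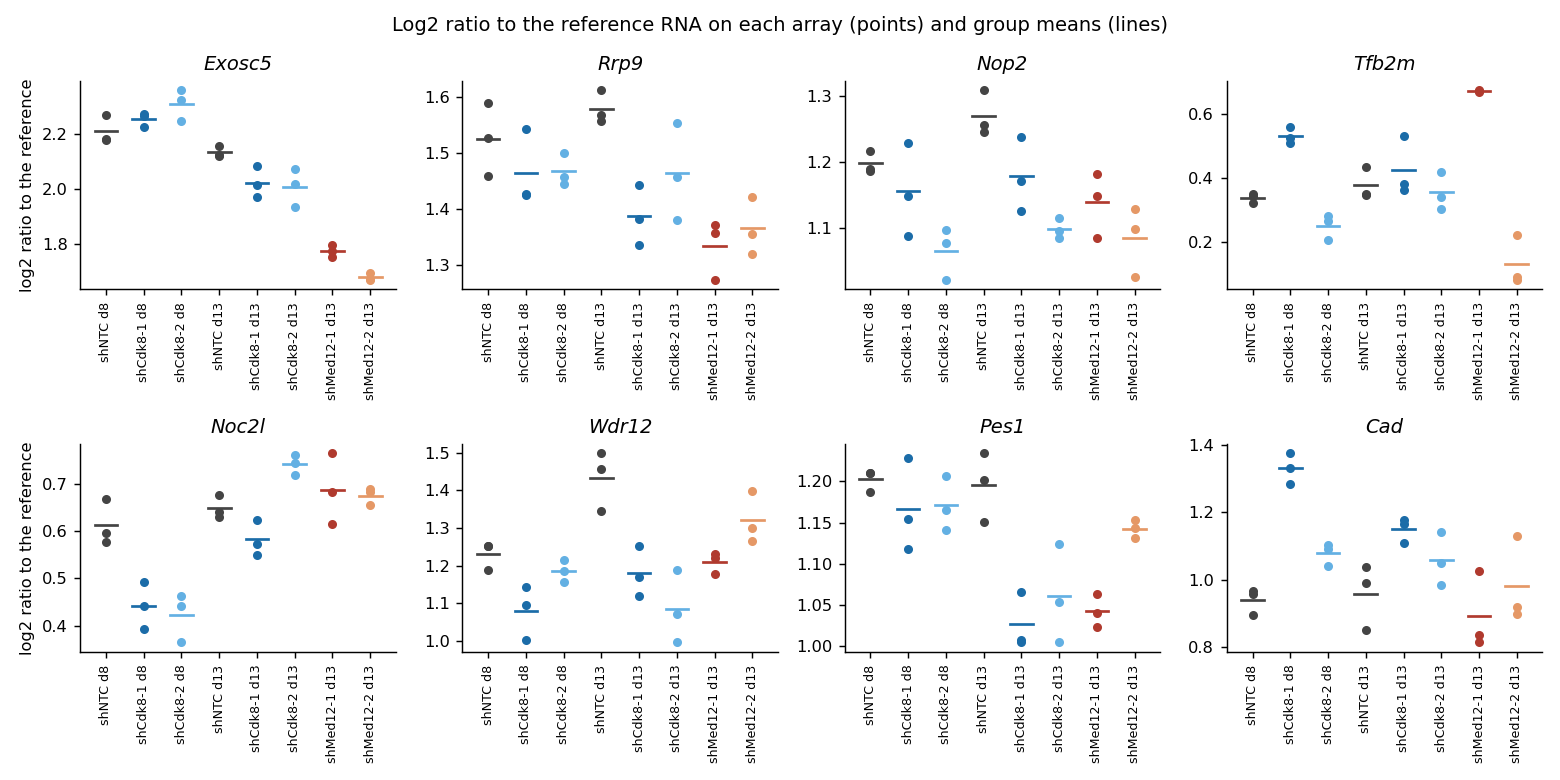
Log2 ratio to the reference RNA (vertical axes, which do not start at 0) of 8 genes on each of the 24 arrays (points) with group means (lines), by hairpin and day. Exosc5 is lowest on the 6 Med12 arrays, and Tfb2m is highest with shMed12-1 and lowest with shMed12-2.

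The remaining calls of shMed12-1 ran across most steps of the pathway. Among the nucleolar proteins, Npm1 was at 0.94, 1.07 and 0.92 in shNTC cells and at 0.83, 0.61 and 0.57 with shMed12-1, a change of -0.31 (adjusted p = 0.00666), and the other Npm1 probe gave -0.32. With shMed12-2 Npm1 was at 0.93, 1.01 and 1.11. Ncl was at -0.01 with shMed12-1 and -0.15 with shMed12-2 in log2 change, not called, while its 2 dimmer probes were called lower with shMed12-2 (-0.23 and -0.43). Nolc1 changed by -0.24 with shMed12-1, and its dimmer probe was called lower with both hairpins (-0.31 and -0.34).

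Of the C/D snoRNP genes, Nop58 (a core protein) rose by 0.18 with shMed12-1, while Nop56, its partner, and Fbl were at -0.15 and 0.11, not called. Of the 4 H/ACA genes, Gar1 and Nhp2, both core proteins, changed by -0.33 and -0.26, and Dkc1 and Nop10 were at -0.09 and 0.07. Rrp12 was at 1.77, 1.92 and 1.83 with shMed12-1 against 2.25, 2.20 and 2.14 in shNTC cells, a change of -0.36. The arrays did not overlap.

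Pes1, Bop1 and Wdr12 form the PeBoW complex, which is needed to mature the large subunit's rRNA, and all 3 were called lower with shMed12-1, by -0.15, -0.22 and -0.22. With shMed12-2 they were at -0.05, -0.13 and -0.11, none called. Dimmer probes differed from this: with shMed12-2 the other Pes1 probe (-0.31) and both other Wdr12 probes (-0.28 and -0.25) were called lower, and with shMed12-1 none of the 3 was. The difference between the hairpins was not called for any PeBoW gene. Of the 10 other large subunit genes, Wdr74 (-0.30), Rrp1b (-0.26), Ppan (-0.16) and Nop2 were lower with shMed12-1 and Nop16 was higher (0.19). Both RNA polymerase I subunits were uncalled: Polr1a at 0.05 with each hairpin and Polr1b at -0.18 and 0.02.

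Both polyamine enzymes were called lower with shMed12-1: Odc1 by -0.28 and Srm (spermidine synthase) by -0.22. With shMed12-2 they were at -0.20 and 0.03, not called. Among nucleotide enzymes Paics fell from -0.51, -0.49 and -0.44 to -0.76, -0.86 and -0.75 with shMed12-1, a change of -0.31. Cad, which opens pyrimidine synthesis, and Nme1, a nucleoside diphosphate kinase, were at -0.07 and 0.05. Of the 20 calls with shMed12-1, 12 held in every fit that left out 1 array. The others were Nolc1 (lost without shNTC day 13 replicate 2 or 3 or shMed12-1 replicate 1), Nop58 (shNTC 2 or shMed12-1 1), Pes1 (shNTC 2 or shMed12-1 2), Nop2, Nop16 (shNTC 2 or 3 or shMed12-1 3), Rrp1b (shNTC 1 or 2 or shMed12-1 1 or 2), Ppan (shNTC 1 or 3 or shMed12-1 1 or 2) and Srm (shNTC 1 or shMed12-1 2). With slide as a block the called genes with shMed12-1 were Nhp2, Rrp12, Wdr74, Exosc5 and Tfb2m.

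Not overlapping with the controls is a looser measure. With shMed12-1, 20 of 39 genes had all 3 arrays below all 3 shNTC arrays, beside 23.4% of all genes, and 3 had all above, beside 22.0%. With shMed12-2 the counts were 14 (21.7% of all genes) and 2 (21.6%).

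The 2 Med12 hairpins differed from each other in 9 of the 39 genes, beside 26.8% of all genes, with 7 lower in shMed12-1 (13.0% of all genes). Tfb2m, a transcription factor of mitochondrial DNA, was called in opposite directions. It was at 0.35, 0.35 and 0.43 in shNTC cells, at 0.67, 0.67 and 0.67 with shMed12-1 and at 0.09, 0.08 and 0.22 with shMed12-2. The 3 sets of arrays did not overlap. The changes were 0.29 and -0.25 and their difference 0.54 (SE 0.05, adjusted p = 6.36e-08). Its other probe gave 0.27, called, and -0.10, not called. The next differences were those of Npm1 (-0.35), Nhp2 (-0.30), Rrp12 (-0.30), Gar1 (-0.27) and Nop58 (0.27), as shMed12-1 minus shMed12-2. The 2 hairpins shared no slide. Of the 9, 6 stayed called with slide as a block, and Npm1, Gar1 and Paics did not. Across all genes 1.73% were called in opposite directions with these hairpins.

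Set against Med12 knockdown on the same day, Cdk8 knockdown differed in 8 of the 39 genes, as means of both hairpins, 5 higher and 3 lower, beside 22.6% of all genes (10.9% higher, 11.7% lower). Besides Exosc5, Odc1 (0.23), Cad (0.17), Srm (0.17) and Dkc1 (0.13) were higher with Cdk8 knockdown, and Nop16 (-0.21), Ncl (-0.14) and Wdr12 (-0.13) lower. Odc1 was at 1.69, 1.80 and 1.77 with shMed12-1 and at 1.86, 1.90 and 1.75 with shMed12-2, and between 1.91 and 2.24 on the 6 Cdk8 arrays of that day. Those sets did not overlap. Of the 8, 7 stayed called with slide as a block, and Wdr12 did not.

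Markers of other cell types also differed between these groups. Of 8 trophoblast markers, 5 were higher with shMed12-1 and 4 with shMed12-2 (1 was lower). Their mean level on single arrays was 0.56 to 0.62 in shNTC cells of day 13, 1.90 to 1.95 with shMed12-1 and 0.92 to 1.04 with shMed12-2. Of 9 pluripotency markers, 8 were lower with shMed12-1 and 3 with shMed12-2, with mean levels of 5.98 to 6.09, 5.39 to 5.61 and 5.53 to 5.72 in the same order. Of 13 endoderm markers, 6 were lower and 1 was higher with both Med12 hairpins, and of 15 fibroblast markers 4 were higher with both. The shares of all genes called with both hairpins were 5.24% lower and 5.69% higher. For single hairpins they were 13.5% lower and 13.3% higher with shMed12-1, and 12.2% lower and 11.9% higher with shMed12-2. Cdx2, a defining trophoblast marker, was well above background on all 24 arrays. The part of these markers in the changes of the ribosome genes was not tested. In RNA of whole cultures, fewer cells of a type and less RNA per cell cannot be told apart.

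With both Cdk8 hairpins, Noc2l was lower on day 8 and Wdr12 and Pes1 were lower on day 13. On day 8, 4 of 39 were called with shCdk8-1 (2 higher and 2 lower) beside 21.7% of all genes (10.7% and 11.0%), and 9 with shCdk8-2 (1 higher and 8 lower) beside 20.4% (10.8% and 9.59%). On day 13, 5 were called with shCdk8-1 (1 higher, 4 lower) beside 18.6% (9.33% and 9.22%), and 7 with shCdk8-2 (1 higher, 6 lower) beside 17.5% (8.65% and 8.83%). Lower calls with shCdk8-2 were 8 of 39 on day 8 and 6 of 39 on day 13, against 9.59% and 8.83% of all genes. Without shNTC day 8 replicate 1 the count with shCdk8-1 on day 8 was 2. The slide block gave counts of 2 on day 8 (Cad and Tfb2m) and 0 on day 13 with shCdk8-1, which shares no slide with its controls. With shCdk8-2 they were 9 and 6. Shares of all genes in the slide-block fit are not given here. On day 13 the count was 3 for shCdk8-1 without shNTC replicate 1, and 4 for shCdk8-2 without shNTC replicate 1, shNTC replicate 2 or shCdk8-2 replicate 1.

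**Figure D4:**
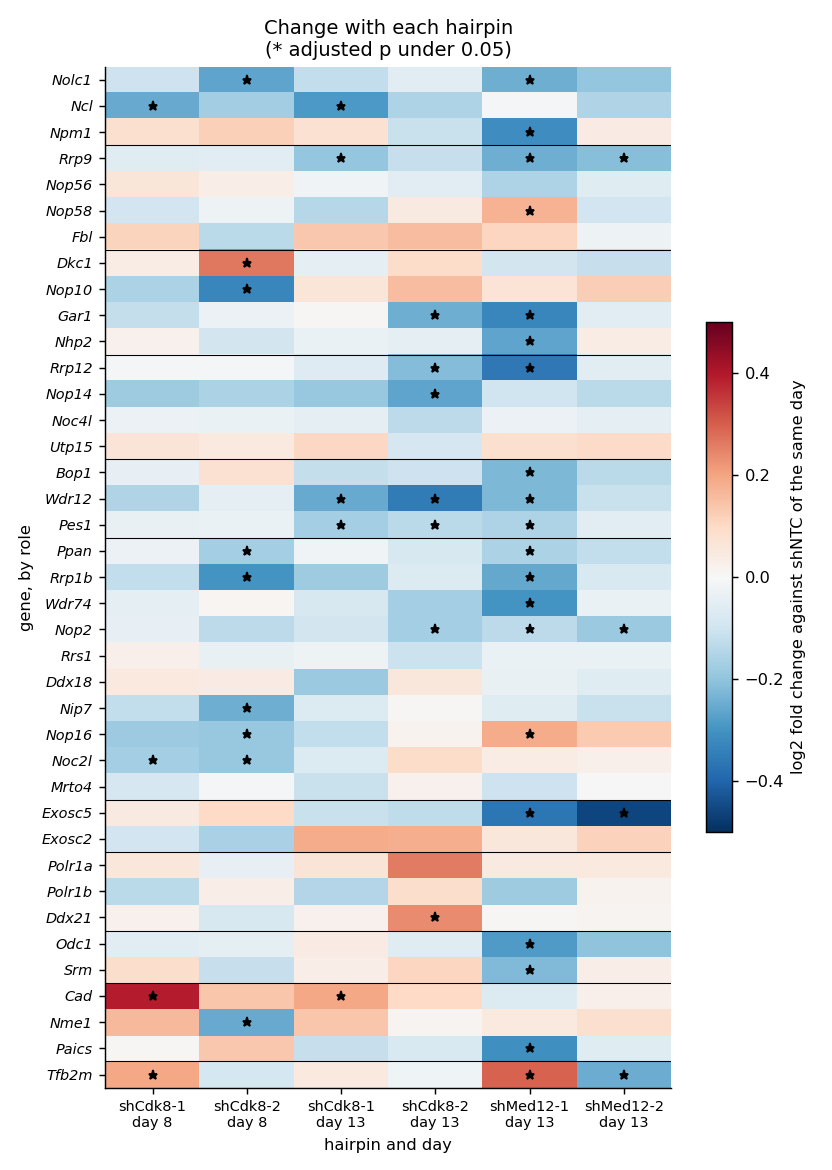
Log2 fold change against shNTC of the same day (colour, blue lower and red higher, from -0.5 to 0.5) of the 39 genes (rows, by role) with each of 6 hairpin and day combinations (columns), with a star at an adjusted p under 0.05. The shMed12-1 column holds 20 stars and the shMed12-2 column 4.

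With both Cdk8 hairpins, 1 gene was called in the same direction on day 8 (7.74% of all genes, 3.60% lower) and 2 on day 13 (7.01% of all genes, 3.37% lower), all lower. The count of day 8 was 0 without shNTC replicate 1 or shCdk8-1 replicate 1, 2 without shCdk8-1 replicate 2 or shCdk8-2 replicate 3, and 3 without shCdk8-2 replicate 1. That of day 13 was 1 without shNTC replicate 2 or 3 or shCdk8-2 replicate 1 or 2. Noc2l, a large subunit factor that also binds histones, was the gene of day 8. It was at 0.67, 0.60 and 0.58 in shNTC cells, at 0.39, 0.49 and 0.44 with shCdk8-1 and at 0.36, 0.44 and 0.46 with shCdk8-2. The arrays did not overlap. The changes were -0.17 (adjusted p = 0.0126) and -0.19 (adjusted p = 0.00645), and the other Noc2l probe gave -0.19 and -0.30. The call with shCdk8-1 was lost without shNTC day 8 replicate 1, without shCdk8-1 day 8 replicate 1 and with slide as a block (-0.14). On day 13 Noc2l was at -0.07 and 0.09, not called.

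The genes of day 13 were Wdr12 and Pes1, both of the PeBoW complex, whose remaining member Bop1 was at -0.12 and -0.10, not called. Wdr12 was at 1.35, 1.46 and 1.50 in shNTC cells, at 1.12, 1.25 and 1.17 with shCdk8-1 and at 1.07, 1.00 and 1.19 with shCdk8-2. The arrays did not overlap, and the changes were -0.25 (adjusted p = 0.00308) and -0.35 (adjusted p = 0.000185). The dimmer Wdr12 probes gave -0.31 and -0.53, both called, and 0.06 and -0.03, neither called. Wdr12 in shNTC cells was itself higher on day 13 than on day 8, when it was at 1.25, 1.25 and 1.19. All knockdown arrays of day 13 except shCdk8-1 replicate 2 (1.25) lay at or below the lowest of these day 8 levels.

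Pes1 was at 1.15, 1.23 and 1.20 in shNTC cells, at 1.01, 1.07 and 1.01 with shCdk8-1 and at 1.05, 1.00 and 1.12 with shCdk8-2. The changes were -0.17 (adjusted p = 0.00951, not called without shNTC day 13 replicate 2) and -0.14 (adjusted p = 0.0407). The other Pes1 probe went the other way with shCdk8-2, at 0.26 and called, and was at 0.01 with shCdk8-1. The shCdk8-2 call of Pes1 was lost in 4 of 6 fits that left out 1 array (shNTC day 13 replicates 2 and 3 and shCdk8-2 replicates 1 and 2). Under the slide block neither day had a gene called with both hairpins. Some dimmer probes were called lower with both Cdk8 hairpins where the brightest probe was not called with both. On day 8 these were both dimmer probes of Ddx21, an RNA helicase of the nucleolus (-0.46 and -0.41 for one, -0.45 and -0.25 for the other). Also called lower on day 8 were dimmer probes of Rrp1b (-0.28 with each), Wdr12 (-0.25 and -0.27) and Tfb2m (-0.18 with each). On day 13 it was that of Nop14, a small subunit factor (-0.37 and -0.32). Of the cell type markers on day 13, 6 of 9 pluripotency markers were lower with shCdk8-1 and 2 with shCdk8-2, with mean levels of 5.67 to 5.78 and 5.78 to 5.94 against 5.98 to 6.09 in shNTC cells. Of 8 trophoblast markers, 3 and 4 were higher, with mean levels of 0.61 to 0.74 and 0.82 to 0.89 against 0.56 to 0.62. Of 13 endoderm markers, 8 were lower and 2 higher with shCdk8-1, 7 were lower with shCdk8-2, and 6 were lower with both. Their mean levels were -1.61 to -1.60 and -1.59 to -1.58 against -1.34 to -1.27. The shares of all genes were 9.22% lower and 9.33% higher with shCdk8-1, 8.83% and 8.65% with shCdk8-2, and 3.37% lower with both.

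Cad moved the other way. It was at 0.97, 0.90 and 0.96 in shNTC cells of day 8 and at 1.33, 1.38 and 1.28 with shCdk8-1, a rise of 0.39 (SE 0.07, adjusted p = 0.000183), with no overlap of arrays. With shCdk8-2 it was at 1.09, 1.04 and 1.10, a change of 0.14 that was not called. The 4 Cad probes gave 0.39, 0.25, 0.08 and 0.27 with shCdk8-1. On day 13 Cad was at 0.19 with shCdk8-1, a call lost in 5 of 6 fits that left out 1 array (all but the one without shNTC replicate 2), and at 0.10 with shCdk8-2.

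Ncl was lower with shCdk8-1 on both days, by -0.25 (adjusted p = 0.0106, not called without shNTC day 8 replicate 1) and -0.29, and at -0.17 and -0.15 with shCdk8-2, not called. The slide block gave Ncl -0.33 and -0.22 with shCdk8-1, called on neither day. Its other bright probe gave -0.24 and -0.27 with shCdk8-1, both called, and the 2 dimmer probes lay between -0.15 and 0.09. Npm1 stayed between -0.11 and 0.12 with the Cdk8 hairpins, Fbl between -0.13 and 0.16 and Nop56 between -0.06 and 0.06, none called, though the other Npm1 probe was called higher with shCdk8-2 on day 8 (0.18). Polr1a and Polr1b were not called either, with the largest value 0.26 for Polr1a with shCdk8-2 on day 13. Odc1 and Srm stayed between -0.12 and 0.11.

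The 2 Cdk8 hairpins differed from each other in 7 of the 39 genes on day 8 (23.4% of all genes) and in 4 on day 13 (17.3%). Nme1 showed the largest difference on day 8. It was at 0.67, 0.63 and 0.72 in shNTC cells, at 0.89, 0.80 and 0.81 with shCdk8-1 and at 0.46, 0.43 and 0.37 with shCdk8-2. Its difference between hairpins was 0.41 (SE 0.06, adjusted p = 1.89e-05), with the controls lying between both knockdowns. Tfb2m (0.28), Cad (0.25), Fbl (0.24), Dkc1 (-0.23) and Srm (0.20) followed. The 2 hairpins shared no slide on either day. Only 1 of the 7 stayed called with slide as a block, Tfb2m (0.33), and Nme1 was at 0.29 (adjusted p = 0.0577). Other probes went against 2 of these: the dimmer Tfb2m probe was called lower with each hairpin (-0.18 and -0.18), and the dimmer Dkc1 probe was at -0.03 and -0.14, not called. On day 13 they were Gar1 (0.25), Ddx21 (-0.21), Nop58 (-0.19) and Noc2l (-0.16), of which Gar1 and Ddx21 stayed called with slide as a block. The dimmer Noc2l probe was at -0.15 with shCdk8-1 and -0.17 with shCdk8-2 on day 13, neither called. In the same order, dimmer Ddx21 probes were at -0.20 and -0.16, neither called, and at -0.50, called, and -0.06, not called. The day 13 count fell to between 1 and 2 without shCdk8-1 replicate 1 or 3 or any 1 of the 3 shCdk8-2 replicates. Between the days, the effect of shCdk8-2 differed in 8 of the 39 genes (10.4% of all genes) and the mean effect of both hairpins in 1 (5.72% of all genes), Nop10. Where comparisons share the shNTC arrays, their values are not independent.

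None of the 39 genes changed by more than 1.5-fold against shNTC with any hairpin, and of all genes between 1.35% and 3.39% did. For the 39 genes the median half-width of a 95% interval was 0.13 log2 units. Over these genes and all hairpins the limits ran from 0.68-fold (Exosc5 with shMed12-2) to 1.44-fold (Cad with shCdk8-1 on day 8). These limits were unadjusted for the number of genes. A gene that was not called may still have changed by as much as its interval allows.

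Genes of the same pathways outside the group were also called. For comparison, the shares of all genes called with both hairpins were 3.60% lower and 4.14% higher for Cdk8 on day 8, 3.37% and 3.64% on day 13, and 5.24% and 5.69% for Med12. Of 93 measured further ribosome biogenesis genes, 9 were called lower with both Cdk8 hairpins on day 8, 5 on day 13 and 10 with both Med12 hairpins, where 1 was higher. Their median log2 changes, as means of both hairpins, were -0.10, -0.07 and -0.07, against 0.00 over all genes. Nsun5, an rRNA methyltransferase, and Nvl, an ATPase that releases large subunit factors, were lower with both hairpins in all 3 comparisons: Nsun5 by -0.35, -0.46 and -0.22 and Nvl by -0.28, -0.34 and -0.27. Utp23, a small subunit factor, changed by -0.20 with Cdk8 knockdown on day 8 and by 0.24 with Med12 knockdown, called with both hairpins each time. Ebna1bp2, a large subunit factor, was at 0.02, -0.19 and -0.28, called with both hairpins in both comparisons of day 13. In the difference between Cdk8 and Med12 knockdown on day 13, as means of both hairpins, 11 of the 93 were called higher and 7 lower. The shares of all genes were 10.9% and 11.7%. The Cdk8 effects of day 8 were not tested against those of Med12.

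Of 14 further RNA polymerase I genes, 2 were called lower with both Med12 hairpins, beside 5.24% of all genes. They were Rrn3, the initiation factor that recruits the polymerase, by -0.21 and Znrd1, a small subunit, by -0.32. Top1 was called higher with both Cdk8 hairpins on day 13, by 0.23. Of 25 further nucleotide and polyamine genes, 4 were lower and 1 higher with both Med12 hairpins (5.24% and 5.69% of all genes). Among them were Impdh2, the enzyme that limits guanine nucleotide synthesis, at -0.27, and Dhodh, of pyrimidine synthesis, at -0.32. Of 11 genes of mitochondrial transcription and translation, 3 were lower with both Med12 hairpins (5.24% of all genes): Tfam by -0.20, Tfb1m by -0.22 and Tufm by -0.26. Of 79 cytosolic ribosomal protein genes, 3 were higher with both Cdk8 hairpins on day 8 (4.14% of all genes) and 1 was lower on day 13 (3.37%). With both Med12 hairpins 1 was higher (5.69%). Their medians were 0.06, -0.02 and 0.01 in the same order.

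Myc itself was called with shCdk8-2 on day 13, at 0.48, and with shMed12-1, at -0.25, and with neither partner hairpin. Mycn, the family member also known from ES cells, was called with shCdk8-1 on day 8, at 0.38, and with shMed12-1, at -0.60, and was at -0.002 with shMed12-2. Of 13 proliferation genes, 2 were lower with both Med12 hairpins (Top2a by -0.39 and Mcm7 by -0.21), beside 5.24% of all genes. With both Cdk8 hairpins on day 8, 1 was lower, beside 3.60%. On day 8, 11 of 13 endoderm markers were lower with shCdk8-2 and 8 with shCdk8-1, with mean levels on single arrays of -0.54 to -0.48 in shNTC cells, -0.83 to -0.80 with shCdk8-1 and -1.42 to -1.39 with shCdk8-2. Ttr was well above background on 0 arrays and Afp on 3 of 24. Of 8 trophoblast markers, 3 were lower with shCdk8-1 and 5 with shCdk8-2 on that day. The shares of all genes called lower were 11.0% with shCdk8-1 and 9.59% with shCdk8-2. The part of these genes in the changes of the group was not tested.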

How the data were processed

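Gene expression of R1 cells was measured on 24 Agilent 2-colour arrays. Spots were quantified with Agilent Feature Extraction 10.7, per the submitters' processing notes. The deposited files give the median intensity of each spot and its local background in Cy5 (cells) and Cy3 (reference), per the file headers, with no normalization, and the software's own log10 ratio of both colours (Cy5 over Cy3). Values in the table deposited by the authors are log2 ratios, whose scale and direction were settled against that log10 ratio (slope 1.00 on every array); the sources used here do not state how its blanks were set. The marks for spots well above background, saturated or outlying are other values in the deposited files.

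Intensities were corrected with normexp (offset 50) and log2 ratios normalized by loess within arrays in limma 3.58.1 (R 4.3.3), without control and outlier spots. The normexp parameters were fitted without spots lying more than 50 units under their local background. The default fit on all spots failed on 2 arrays (replicate 1 of shCdk8-1 on day 8, replicate 3 of shMed12-1 on day 13), where log ratios had slopes of 0.778 and 0.786 on the rest of their group, against 0.966 and 1.007 after this step. The step was chosen after these slopes were seen and departs from the plan, whose default fit is kept as an alternative. Probes (41174) were named by RefSeq accession through a table of GRCm38.p6, 22951 with a symbol, and kept when all 3 arrays of at least 1 group marked the Cy5 signal as well above background (28294, less 63 with missing values). The brightest probe stood for a gene. A linear model of 8 group means was fitted with 16 residual degrees of freedom and moderated two-sided tests, adjusted over all 22387 genes; a gene counted for a target when called with both hairpins in the same direction. The code was tested on simulated data.

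The genes, lists and alternatives were chosen with earlier results of these data known. Named with values are fixed examples of each role (Ncl, Npm1, Fbl, Nop56, Dkc1, Pes1, Nop2, Exosc5, Polr1a, Polr1b, Odc1, Srm, Cad, Nme1, Tfb2m), genes called with both hairpins, up to 6 with the largest called difference between hairpins, and up to 4 of each further list. Others named in the text were chosen after their values were seen. Promoter sequences are RefSeq's. Replicate numbers did not pair the arrays: correlations of same-numbered deviations ran from -0.07 to 0.23.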

Additional observations from a re-analysis of the deposited data

Results flagged for a closer look

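The effect of Cdk8 knockdown differed between days for some genes, tested as the day 13 effect minus the day 8 effect. As the mean of both hairpins this held for 1 of 39 genes (5.72% of all genes): Nop10, an H/ACA snoRNP protein, at 0.35 (SE 0.07, limma adjusted p = 0.00569), and not with slide as a block (0.30, adjusted p = 0.0647). With shCdk8-2 it held for 8 of 39 genes (10.4% of all genes), and with shCdk8-1 Nop10 was at 0.22, not called. The values with shCdk8-2 were 0.48 for Nop10, 0.32 for Ddx21, -0.30 for Wdr12, 0.29 for Fbl, 0.28 for Noc2l, 0.26 for Nme1, 0.25 for Nip7 and -0.23 for Exosc5. Nop10 was the largest: it was at 1.09, 1.05 and 1.29 with shCdk8-2 on day 8 against 1.46, 1.43 and 1.52 in shNTC cells, and at 1.50, 1.40 and 1.48 against 1.32, 1.22 and 1.37 on day 13. With slide as a block the differences of Nop10 (0.43), Noc2l (0.32), Ddx21 (0.31) and Exosc5 (-0.28) stayed called, and those of Wdr12 (-0.29), Fbl (0.25), Nip7 (0.23) and Nme1 (0.22) did not. The dimmer probes shifted the same way between the days, untested: the Ddx21 probes from -0.41 to -0.16 and from -0.25 to -0.06, and the Noc2l probe from -0.30 to -0.17. The day 8 and day 13 effects use different control arrays, which also differed in endoderm and trophoblast markers. The cause of the differing effects was not tested.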

How the results depend on the processing

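Counts of called genes are given in a fixed order: shCdk8-1 and shCdk8-2 on day 8, then on day 13, shMed12-1 and shMed12-2 (4, 9, 5, 7, 20 and 4), both hairpins for Cdk8 on day 8, Cdk8 on day 13 and Med12 (1, 2 and 3), differences between hairpins in that order (7, 4 and 9) and the change between days in shNTC cells (7). With median centring in place of loess they were 0, 1, 0, 1, 4 and 3, then 0, 0 and 1, then 1, 0 and 1, then 1. With log ratios scaled between arrays, chosen after seeing the data, the first 6 were 0, 0, 0, 1, 2 and 0, those for both hairpins 0, 0 and 0, those for hairpin differences 1 (Cdk8 on day 8) and 1 (Med12), and that between days 3. Signs turned there with shCdk8-2 on day 13 for Gar1 (0.012), Rrp12 (0.19), Pes1 (0.11) and Nop2 (0.066), and with shMed12-1 for Ppan (0.0084). With slide as a block, counts that moved by over 1.5 times were 2 for shCdk8-1 on day 8, 0 on day 13, 5 for shMed12-1, 0, 0 and 1 for both hairpins and 1 for the Cdk8 hairpin difference on day 8. With the Feature Extraction log ratio, and with the authors' value table alike, they were 7 for shCdk8-1 on day 8, 11 for shMed12-2, 2 for both Cdk8 hairpins on day 8, 7 for both Med12 hairpins and 14 for the Med12 hairpin difference. Without the filter on dim probes they were 4 for shCdk8-2 on day 13, 1 for both Cdk8 hairpins on day 13, 1 for their difference and 4 between days. With the mean of all kept probes they were 10 for shMed12-2, 2 for both Cdk8 hairpins on day 8, 7 for both Med12 hairpins and 11 between days, and Pes1 with shCdk8-2 on day 13 turned to 0.063. With only the groups compared in the fit they were 5 and 3 for shCdk8-2 on day 8 and day 13, 8 for shMed12-2, 0 and 1 for both Cdk8 hairpins and 4 and 0 for their differences. With the replicate block they were 2 and 1 for both Cdk8 hairpins on day 8 and day 13. With limma's default background fit, an alternative added after seeing the data, they were 4 for shCdk8-2 and 1 for both Cdk8 hairpins on day 13, and without the 2 arrays on which that fit failed 0 for both Cdk8 hairpins on day 8. Maximum-likelihood normexp and slide as a random block, the latter chosen after seeing the data, moved none of these counts by over 1.5 times. Aquantile leaves log ratios as they are and so tests nothing here. The cause was not tested for any of these. Shares of all genes are not given in this section, so these counts do not show whether the group moved more than other genes. Leaving out 1 array gave 2 to 5, 6 to 10, 3 to 4, 4 to 7, 14 to 19 and 4, then 0 to 3, 1 to 2 and 2 to 3, then 5 to 8, 1 to 3 and 8 to 9, then 3 to 6. Of 49 called values of a gene with a hairpin, 26 stayed called in every such fit and 23 with slide as a block. The number of arrays, 3 a group, limits the precision.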
